A study of Mus musculus with 2 samples.

Results

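The genes described here are the cyclins, cyclin-dependent kinases (CDKs) and CDK inhibitors that act in G1 phase of the cell cycle. They were 10 genes taken by symbol from a table of 14197 genes, namely Ccnd1, Ccnd2, Ccnd3, Ccne1, Ccne2, Cdk4, Cdk6, Cdk2, Cdkn1b and Cdkn2c, and all 10 were listed in it. The rule that picks them names the genes and uses no value of the table, although the list was drawn up with earlier results of these data known. The table holds 2 RNA-seq libraries of 4T1 cells, 1 made after 24 h with 20 μM astragalin (AS) and 1 after the vehicle alone. 4T1 is a murine mammary carcinoma line, labelled as WT in genotype. The study also made a luciferase-labelled 4T1 line, and whether these libraries came from it is not given in the sources used here. AS is a plant flavonoid, a glucoside of kaempferol. The study asked how AS inhibits the growth of breast cancer cells. With 1 library per condition there was no replicate check on any difference, and AS cannot be told apart from any other difference between the cultures.

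The values are RPKM, reads scaled to the summed exon length of the gene and to the size of the library. Levels can be compared between libraries, and between genes only per summed exon length. That length counts all annotated exons, so the level is understated for a gene whose expressed transcripts are shorter. The library sizes implied by the values were 44909682 reads for AS and 50820716 for the vehicle. Fold changes are on the log2(RPKM + 0.1) scale, as AS minus vehicle, which understates the change of low genes. The intervals are 95% Clopper-Pearson intervals of the whole reads behind each ratio, computed without the added amount, and cover counting error only. The median gene of the table had a log2 fold change of 0.07. TMM scaling and median-of-ratios scaling of the reads each lowered every fold change by 0.07, and scaling to the upper quartile by 0.08. All 8 epithelial markers looked at were listed, with a summed level of 1823 RPKM in the AS library and 2327 RPKM in the vehicle library. In that list 6 of 8 genes had a log2 fold change below 0, as did 39.1% of all genes. The 8 genes ran from -0.73 for Krt19, a keratin gene, to 0.42 for Cldn4. The part of this in the results below was not tested. Of the markers of other cell types, 3 of 6 leukocyte genes, 0 of 4 endothelial genes and 2 of 6 fibroblast genes were listed. The leukocyte genes summed to 0.813 RPKM with AS and 0.879 RPKM with the vehicle, and the fibroblast genes to 1.25 and 1.05 RPKM. No gene of the whole table was at 0 in either library.

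In G1, mitogens raise the D cyclins, which bind CDK4 and CDK6. These kinases phosphorylate the retinoblastoma protein and release E2F transcription factors, whose targets include the E cyclins. Cyclin E then activates CDK2, and the cell passes into S phase. The INK4 protein p18, encoded by Cdkn2c, binds CDK4 and CDK6, and the CIP/KIP protein p27, encoded by Cdkn1b, inhibits cyclin E-CDK2 and also binds cyclin D complexes. Cyclin D1 is well known in breast cancer, where its gene is often amplified, and CDK4 and CDK6 are the targets of drugs used in that disease.

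Promoter sequences were at hand for 7 of the 10 genes, in 9 windows (RefSeq, GRCm38.p6), and were read over the 250 bases before the transcription start. Shown here are those of Cdk2, the lowest of the genes by fold change, of Cdk4, which was slightly lower with AS, and of Cdkn1b, whose level differed little. Each runs 5′ to 3′ on the strand of the gene. Capitals mark the E2F core motif GCGGGAA in Cdk2, the E-box CACGTG in Cdk4 and the CCAAT box in Cdkn1b, each searched on both strands.
Cdk2, chr10:128705052-128705301, minus strand: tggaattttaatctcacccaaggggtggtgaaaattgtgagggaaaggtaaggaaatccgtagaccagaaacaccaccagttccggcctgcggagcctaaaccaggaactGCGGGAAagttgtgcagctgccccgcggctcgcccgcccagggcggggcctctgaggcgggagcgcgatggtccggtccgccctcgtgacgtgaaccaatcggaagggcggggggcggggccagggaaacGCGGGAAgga
Cdk4, chr10:127063285-127063534, plus strand: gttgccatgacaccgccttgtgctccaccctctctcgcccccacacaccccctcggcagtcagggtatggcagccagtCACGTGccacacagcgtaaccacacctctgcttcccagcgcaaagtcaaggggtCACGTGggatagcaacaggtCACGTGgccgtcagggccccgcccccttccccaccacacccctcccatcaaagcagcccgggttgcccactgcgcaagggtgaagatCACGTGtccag
Cdkn1b, chr6:134920151-134920400, plus strand: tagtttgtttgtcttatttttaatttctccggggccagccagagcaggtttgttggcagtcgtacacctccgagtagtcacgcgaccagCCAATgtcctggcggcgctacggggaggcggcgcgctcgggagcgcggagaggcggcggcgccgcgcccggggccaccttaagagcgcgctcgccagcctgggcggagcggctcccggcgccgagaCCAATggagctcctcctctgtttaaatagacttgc
The window of Cdk2 held the E2F core at 2 places and that of Cdk4 held the E-box at 4, while the window of Cdkn1b held the CCAAT box at 2. Of all 32851 promoter windows of this length, 3.82% held the E2F core, 6.02% the E-box and 33.8% the CCAAT box. Among the 9 windows of these genes, 2 held the E2F core, that of Cdk2 and 1 of the pair for Cdkn2c, whose level also differed little. The E-box was in 2 windows, those of Cdk4 and Cdk6, and the CCAAT box in 3, among them that of Cdk2, where it is not marked. The GC box GGGCGG was in 7 of the 9 windows, among them that of Ccne1, and in 32.7% of all windows. The cell cycle homology element TTTGAA, found in promoters of G2 and M phase genes, was in 0 of the 9 and in 15.99% of all. The E2F core and the GC box can share letters, but no match shared a base with a match of another motif in these 9 windows. These matches are of letters only and were not tested for binding.

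In the AS library, 7 of the 10 genes were lower than in the vehicle library and 3 were higher, while 39.1% of all genes in the table were lower and 60.9% higher. The log2 fold changes ran from -0.50 for Cdk2 to 0.57 for Ccnd2, with a median of -0.12, beside 0.07 for all genes. None of the 10 genes passed a log2 fold change of 1, which 0.662% of all genes passed upward and 0.31% downward. The study's methods name this fold threshold with an FDR limit, and the next with a p-value limit. Neither limit was applied here. At a 1.5-fold difference, the other threshold named there (0.58 on the log2 scale), the count was again 0, where 3.56% of all genes lay above and 2.01% below. At 0.5, a threshold chosen after the values were seen, 1 gene was above, Ccnd2, with 5.37% of all genes, and 1 was below, Cdk2, with 3.1% of all genes. The counting interval lay below 0 for Ccnd1, Ccne1, Ccne2, Cdk4 and Cdk2, above 0 for Ccnd2 and Cdk6, and across 0 for Ccnd3, Cdkn1b and Cdkn2c. These calls depend on the scaling. With each of the 3 scalings of the reads, the intervals of Ccnd3 and Cdkn2c also lay below 0 and that of Cdk6 crossed 0. This left 7 intervals below 0 and 1 above, that of Ccnd2. The share of all genes whose interval excluded 0 was not computed, so these counts have no baseline. In RNA from a whole culture, fewer cells that express a gene and less RNA per cell cannot be told apart.

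**Figure D1:**
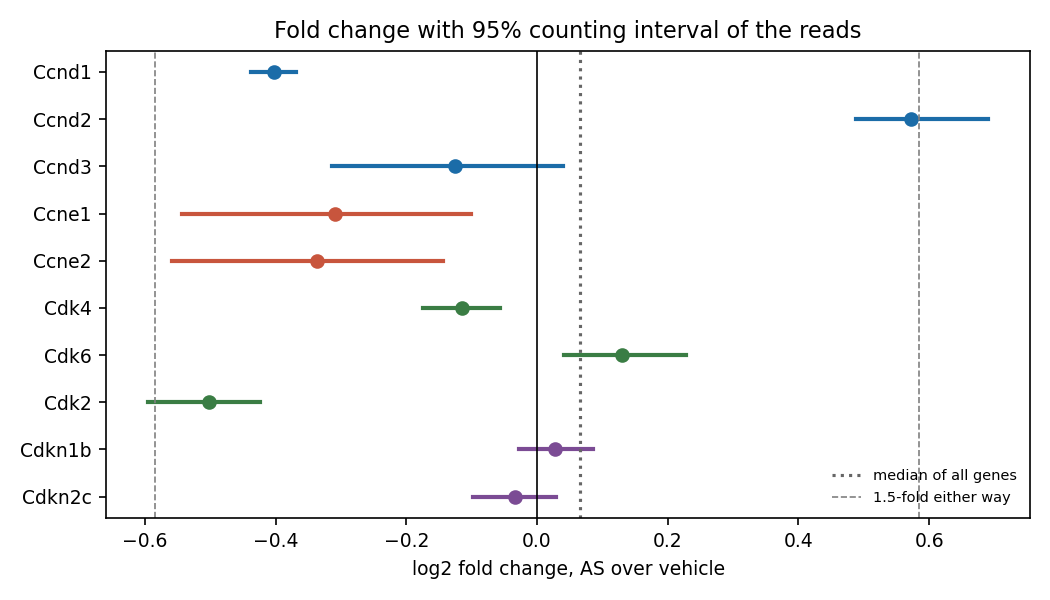
Log2 fold change of AS over vehicle for each gene (points), with the 95% Clopper-Pearson interval of its reads (bars, counting error only) and 1 library per condition. The dotted line is the median of all genes, at 0.07, and the dashed lines stand at 1.5-fold either way; Ccnd2 at 0.57 and Cdk2 at -0.50 lie nearest to them, and both bars cross a dashed line.

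The D cyclins did not differ in 1 direction. Ccnd1 was by far the most abundant of them, and was lower with AS, while Ccnd2 was higher. Ccnd1, the gene of cyclin D1, lies on the minus strand of chromosome 7 (GRCm38), from 144929931 to 144939925. Its level was 53.1 RPKM in the AS library, from 11227 reads, and 70.2 RPKM in the vehicle library, from 16803 reads. The AS level was therefore 24.4% below the vehicle level, a log2 fold change of -0.40, with an interval from -0.44 to -0.37. A total of 1100 bases of the exons of Ccnd1, 23.4% of their length, are also exon of LTO1 on the opposite strand. LTO1, mentioned here because of this overlap, had a level of 18.2 RPKM with AS and 22.9 RPKM with the vehicle. The libraries came from a stranded kit, but whether the authors counted by strand is not given in the sources used here, so reads in shared bases are of uncertain origin.

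Ccnd2, the gene of cyclin D2, lies on chromosome 6 from 127125162 to 127152193 on the minus strand. Its level was 4.42 RPKM with AS and 2.94 RPKM with the vehicle, from 1866 and 1404 reads. It was the gene with the largest difference upward, 50.4% above the vehicle level, with a log2 fold change of 0.57 and an interval from 0.49 to 0.69. Of all genes in the table, 3.77% had a log2 fold change as high or higher. Ccnd2 shares 372 bases of exon, 3.95% of its length, with the antisense gene Gm43126, whose level was 2.39 RPKM with AS and 1.70 RPKM with the vehicle. Without the added 0.1 RPKM, the log2 fold change of Ccnd2 was 0.59, above the lower threshold. The intervals of Ccnd1 and Ccnd2 lay far apart, and their log2 fold changes differed by 0.98.

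Ccnd3, the gene of cyclin D3, on chromosome 17 from 47505051 to 47599691, had the lowest RPKM of the 10 genes, but not the fewest reads. Its level was 1.21 RPKM with AS and 1.33 RPKM with the vehicle, from 476 and 592 reads. Its log2 fold change of -0.13 had an interval that, from -0.31 to 0.04, included 0 with the deposited scaling. With TMM scaling the log2 fold change was -0.19, and its interval, from -0.38 to -0.03, lay below 0. A processed pseudogene, Ccnd3-ps, matches 881 bases of its transcript at 96.3% identity, and reads shared with it are uncertain, as are those in 361 bases of exon shared with Bysl on the opposite strand (4.11% of the length).

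Both E cyclins were lower with AS, and to a like extent. Ccne1, the gene of cyclin E1, lies on chromosome 7 from 38097984 to 38107534. Its level was 2.43 RPKM in the AS library and 3.03 RPKM in the vehicle library, from 290 and 410 reads. Its log2 fold change was -0.31, with an interval from -0.54 to -0.10. Ccne2, the gene of cyclin E2, lies on chromosome 4 from 11191351 to 11204779. Its level was 2.08 RPKM with AS and 2.66 RPKM with the vehicle, from 327 and 472 reads. This gave a log2 fold change of -0.34, with an interval from -0.56 to -0.14. The intervals of the E cyclins overlapped almost entirely, and they are the widest of the 10 genes, since these genes had the fewest reads. In Ccne2, 609 bases of exon, 17.4% of its length, are also exon of Ints8 on the opposite strand, and Ints8 had a level of 2.65 RPKM with AS and 2.81 RPKM with the vehicle.

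The 3 kinases differed from each other. Cdk2, the partner of cyclin E, had the largest difference downward of the 10 genes, Cdk4 was slightly lower with AS and Cdk6 slightly higher with the deposited scaling. Cdk2 lies on chromosome 10 from 128697939 to 128705031 on the minus strand, and its promoter is shown above with its pair of E2F core motifs. Its level was 6.46 RPKM in the AS library and 9.20 RPKM in the vehicle library, from 1805 and 2907 reads. The AS level was 29.7% below the vehicle level, with a log2 fold change of -0.50 and an interval from -0.59 to -0.42. Of all genes in the table, 3.06% had a log2 fold change as low or lower. Cdk2 shares 34 bases of exon, 0.547% of its length, with Pmel.

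Cdk4 lies on chromosome 10 from 127063534 to 127067920, and its promoter is the one shown above with 4 E-boxes. It was the most abundant of the kinases, at 28.6 RPKM with AS and 31.0 RPKM with the vehicle, from 4177 and 5121 reads. This gave a log2 fold change of -0.12, with an interval from -0.17 to -0.06, and ran from -0.19 to -0.18 with the 3 scalings. The log2 fold change of Cdk4 was 0.39 above that of Cdk2, and their intervals did not overlap. In Cdk4, 641 bases of exon, 19.7% of its length, are also exon of Tspan31 on the opposite strand, which had a level of 11.8 RPKM with AS and 11.9 RPKM with the vehicle. Cdk6, on chromosome 5 from 3341485 to 3531008, had a level of 2.89 RPKM with AS and 2.63 RPKM with the vehicle, from 1815 and 1871 reads. Its log2 fold change was 0.13, with an interval from 0.04 to 0.23 that also included the median of all genes. With the 3 scalings it was 0.05 to 0.06, and the interval crossed 0. The closest copy of Cdk6 in the annotation, the pseudogene Gm16505, matches 388 bases at 92.3% identity.

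The inhibitors were at nearly the same level in both libraries. Cdkn1b, the gene of p27, lies on chromosome 6 from 134920401 to 134925513. Its level was 23.5 RPKM with AS and 23.0 RPKM with the vehicle, from 4798 and 5324 reads. Its log2 fold change was 0.03, with an interval from -0.03 to 0.08, and it turned to -0.04 with TMM scaling. Cdkn2c, the gene of p18, lies on chromosome 4 from 109660876 to 109667189. Its level was 30.7 RPKM with AS and 31.4 RPKM with the vehicle, from 3699 and 4287 reads. This gave a log2 fold change of -0.03, with an interval from -0.10 to 0.03. With TMM scaling it was -0.10, with an interval from -0.17 to -0.04, and with upper-quartile scaling -0.11. The interval of Cdkn1b crossed 0 with all 3 scalings.

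The order of the levels was the same in both libraries for the most abundant genes. Ccnd1 was highest, followed by Cdkn2c, Cdk4 and Cdkn1b, with Cdkn2c and Cdk4 close to each other, at a ratio of Cdkn2c to Cdk4 of 1.07 with AS and 1.01 with the vehicle. Cdk2 came next in both. The order of the low genes changed. Ccnd2 and Cdk6 were both above Ccne1 with AS and below it with the vehicle. Cdk6 was also above Ccne2 with AS and slightly below it with the vehicle. Ccnd3 was lowest in both libraries. The highest and the lowest level of the 10 genes differed 43.95-fold with AS and 52.9-fold with the vehicle.

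**Figure D2:**
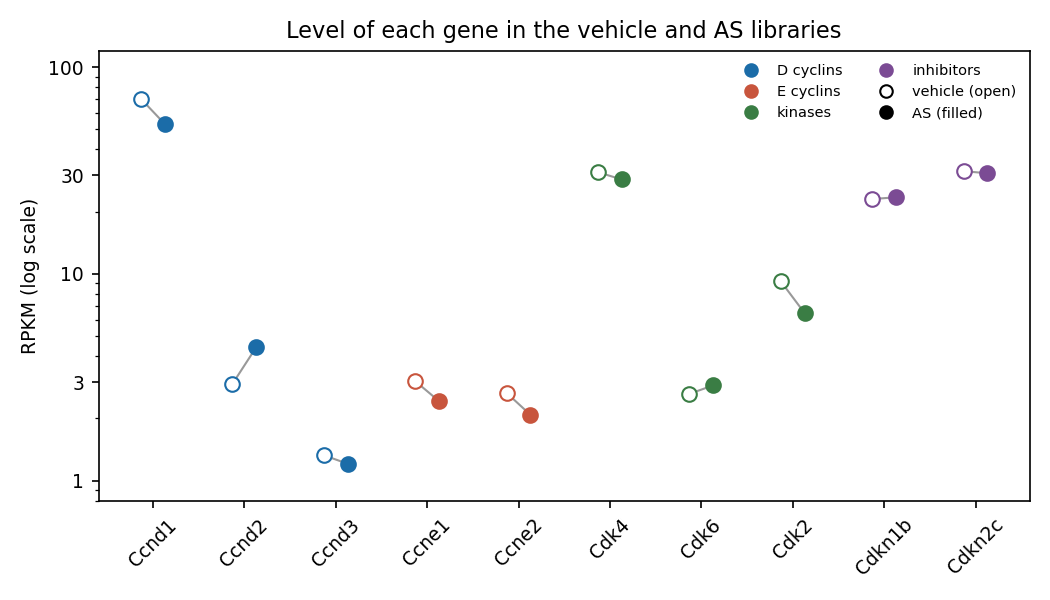
Level of each gene in RPKM, on a log axis, in the vehicle library (open) and the AS library (filled), coloured by role, with 1 library per condition and no error bars. Ccnd1 is highest in both, at 70.2 RPKM with the vehicle and 53.1 RPKM with AS, and Ccnd2 is the only D cyclin whose filled point lies above its open one.

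The make-up of each role was compared through the summed RPKM of its genes. The D cyclins summed to 58.7 RPKM with AS and 74.5 RPKM with the vehicle. Ccnd1 made up 90.4% of the sum with AS and 94.3% with the vehicle, Ccnd2 7.52% and 3.94%, and Ccnd3 2.06% and 1.78%. The ratio of Ccnd1 to Ccnd2 was 12.02 with AS and 23.9 with the vehicle. The higher level of Ccnd2 therefore offset little of the lower level of Ccnd1, and the log2 fold change of the sum was -0.34. The E cyclins summed to 4.51 RPKM with AS and 5.69 RPKM with the vehicle, and Ccne1 held 53.8% and 53.3% of these sums. Of the summed kinases, Cdk2 made up 17.0% with AS and 21.5% with the vehicle, and Cdk4 75.4% and 72.4%. The inhibitors summed to 54.1 RPKM with AS and 54.4 RPKM with the vehicle.

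**Figure D3:**
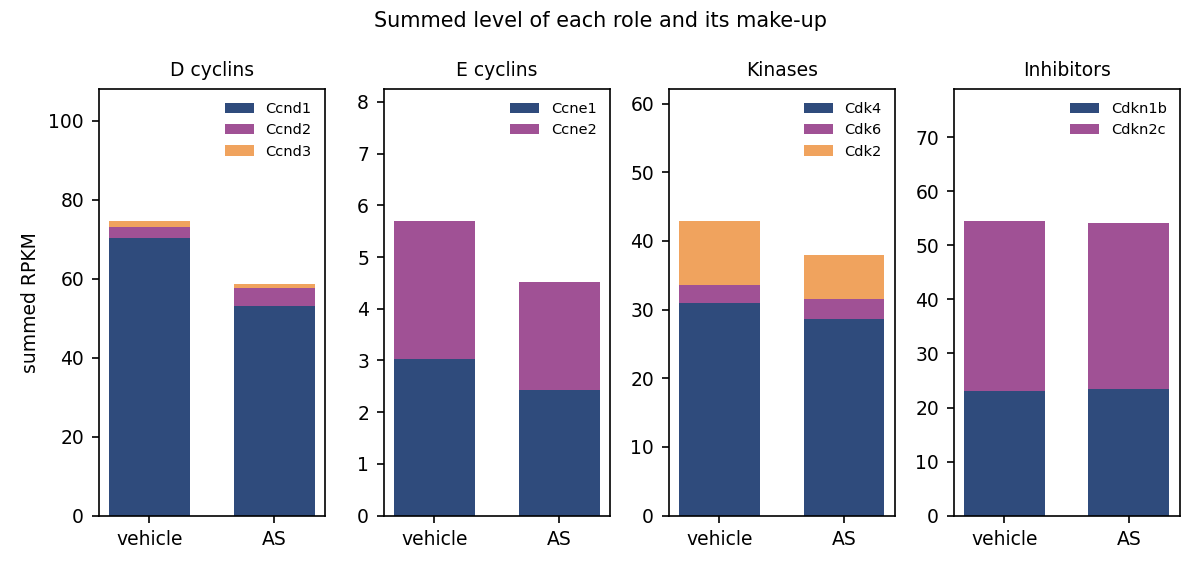
Summed RPKM of the genes of each role in the vehicle and AS libraries, with 1 library per bar and a separate axis from 0 for each role. The D cyclin bar is mostly Ccnd1 and is shorter with AS, 58.7 against 74.5 RPKM, and the inhibitor bars are of nearly equal height, 54.1 and 54.4 RPKM.

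Set against each other per length, the summed D cyclins and Cdk2 were lower relative to Cdkn1b in the AS library. The ratio of the summed D cyclins to Cdkn1b was 2.502 with AS and 3.24 with the vehicle, and the ratio of Cdkn1b to Cdk2 was 3.63 and 2.502. The ratio of the summed D cyclins to the sum of Cdk4 and Cdk6 was 1.86 with AS and 2.21 with the vehicle. The ratio of Cdk2 to the summed E cyclins was 1.43 and 1.62. A ratio within a library does not depend on how the libraries were scaled. These are ratios of transcripts and hold no measure of protein, of complexes or of kinase activity.

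**Figure D4:**
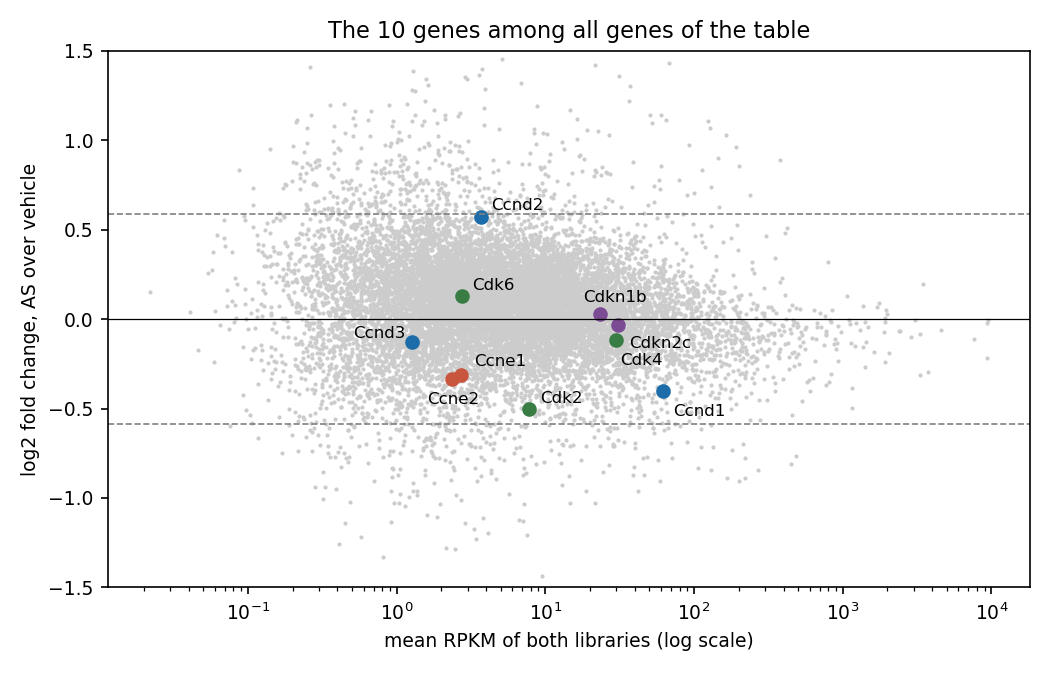
Log2 fold change of AS over vehicle against the mean RPKM of both libraries, on a log axis, for the 10 genes (coloured by role, named) and the other genes of the table (grey), of which 36 lie beyond the axis limit of 1.5. All 10 genes lie between the dashed lines at 1.5-fold either way, where most genes of the table lie.

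Other genes of the pathway, together with other cyclins and CDKs, were looked at through 9 lists. These held 74 genes, of which 70 were listed in the table. Many of the 11 other cyclins and 11 other CDKs act in transcription, so the pooled values are not of G1 genes alone. The medians of single lists ran from -0.42 for the other CDK inhibitors, with 2 genes, to 0.20 for the other CDKs. Of the 70 genes, 1 was more than 1.5-fold higher with AS and 2 were more than 1.5-fold lower. Among all genes these shares were 3.56% and 2.01%. The median log2 fold change of the 70 genes was -0.0007, beside 0.07 for all genes. None passed 1 in either direction, which 0.662% of all genes passed upward and 0.31% downward. The genes beyond 1.5-fold were Cdkn2d, Pkmyt1 and Fbxo31. Cdkn2d encodes p19, an INK4 inhibitor of CDK4 and CDK6 like the product of Cdkn2c. Its level was 4.75 RPKM with AS and 7.90 RPKM with the vehicle, which gave a log2 fold change of -0.72 and an interval from -0.93 to -0.54. Pkmyt1, the gene of a kinase that inhibits CDK1, had a level of 2.88 RPKM with AS and 4.52 RPKM with the vehicle, for a log2 fold change of -0.63. Fbxo31 is the gene of an F-box protein reported to direct the destruction of cyclin D1. It had a level of 9.09 RPKM with AS and 5.88 RPKM with the vehicle, for a log2 fold change of 0.62. It was no longer beyond 1.5-fold with 1 RPKM added or with any of the 3 scalings, which gave 0.54 to 0.55. Pkmyt1 was at -0.51 with 1 RPKM added, and with the 3 scalings E2f1 was also more than 1.5-fold lower, at -0.63 to -0.62.

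Of the other CDK inhibitors, 2 of 5 were listed, Cdkn2d and Cdkn1a, the gene of p21. Cdkn1a was low in both libraries, at 0.508 RPKM with AS and 0.559 RPKM with the vehicle, from 81 and 101 reads, and its interval, from -0.58 to 0.30, included 0. The pocket proteins, the family of the retinoblastoma protein, had log2 fold changes from -0.26 for Rbl1 to 0.03 for Rb1. The E2F and DP factors had a median of -0.13 over 10 genes, and ran from -0.55 for E2f1, an activator, to 0.41 for E2f6, a repressor. The level of E2f1 was 2.85 RPKM with AS and 4.22 RPKM with the vehicle. Ccna2, Ccnb1, Ccnb2, Ccnf and Cdk1, the genes listed for S and M phase, were all lower with AS, as were 39.1% of all genes. They ran from -0.36 for Ccnf to -0.07 for Ccnb1, with a median of -0.25. The genes of cyclin and p27 turnover had a median of 0.07 over 9 genes, and those that switch CDKs on or off by phosphorylation a median of -0.11 over 8.

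The other cyclins and CDKs, many of which act in transcription, had medians near or above that of all genes. For the 11 other cyclins the median was 0.06, and they ran from -0.24 for Ccng2 to 0.54 for Ccnj. The 11 other CDKs had a median of 0.20 and ran from -0.06 for Cdk5 to 0.39 for Cdk10, and none was beyond 1.5-fold. The regulators of the G1 cyclin and inhibitor genes had a median of 0.08 over 11 genes, from -0.18 for Foxo3, a factor that acts on Cdkn1b, to 0.36 for Myc. The level of Myc, whose protein binds E-boxes, was 29.7 RPKM with AS and 23.1 RPKM with the vehicle. Of 5 proliferation markers, all were lower with AS, with a median of -0.54, while 39.1% of all genes were lower. Those more than 1.5-fold lower, as were 2.01% of all genes, were Mcm2 and Cdc6, at -0.70 and -1.14.

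**Figure D5:**
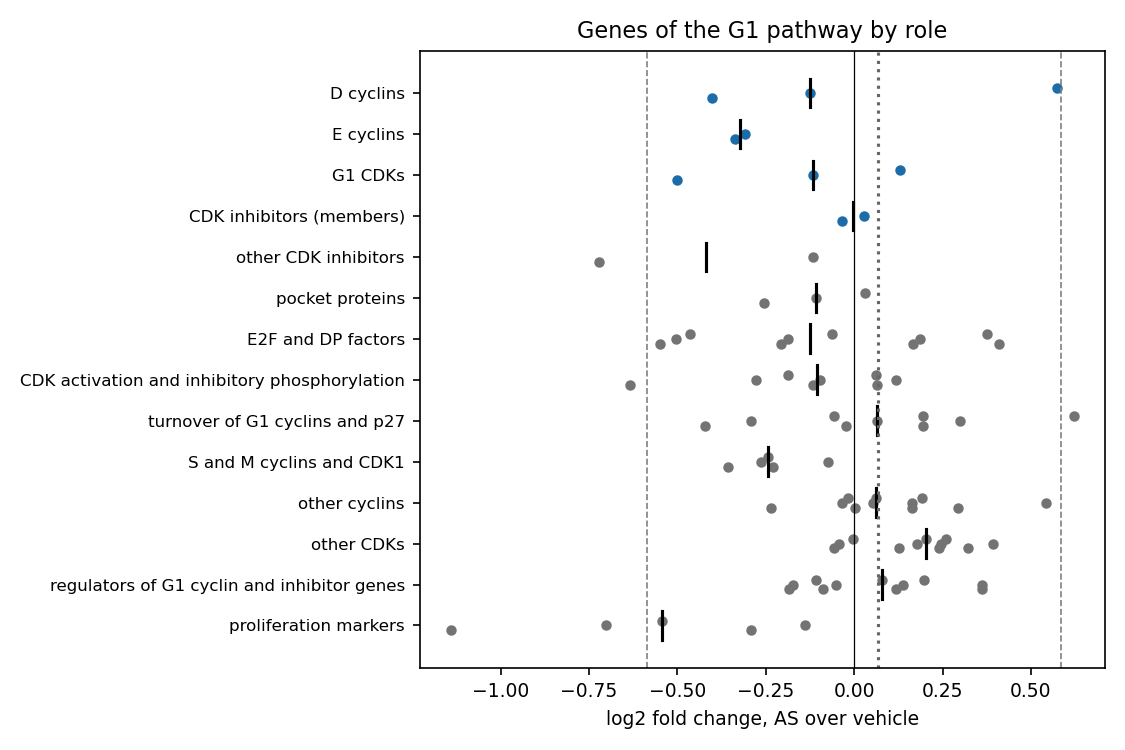
Log2 fold change of AS over vehicle for each listed gene (points) by role, with the median of each list (short black line), the median of all genes (dotted) and 1.5-fold either way (dashed). The 10 genes are in blue; the medians run from -0.54 for the proliferation markers to 0.20 for the other CDKs.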

How the data were processed

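Total RNA of 4T1 cells was used for 1 stranded mRNA library per condition. The submitters' processing notes name fastp 0.23.4, STAR 2.5.3a, featureCounts and the build GRCh38, which is human, although the symbols are of mouse genes. The authors deposited the RPKM of each library for 14197 genes, a unit found from the values. The authors' own comparison (fold change, mean CPM, p-value and FDR) was not used.

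RPKM times the summed exon length in GENCODE M21 (GRCm38, source of the coordinates) gave whole reads, within 0.1 read, for 12774 of 13502 genes with a single entry there (94.6%), the 10 genes included. Library sizes were those that made the reads whole. The sources used here name no molecular identifiers, so reads may not be independent molecules.

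With 1 library per condition no test was made. Calls are log2 fold changes beyond 1, or beyond 1.5-fold. The script was tested on simulated data. Alternatives were 0 or 1 RPKM added, scaling of the reads by TMM, the median of ratios or the upper quartile, and a minimum mean of 1 RPKM or 50 reads. Copies and overlaps were found with blastn 2.17.0 and the annotation, in Python 3.11.15. Genes and lists were chosen with earlier results of these data known. Named are the 10 genes and, per list, those beyond 1.5-fold, or otherwise the highest and lowest. Overlapping genes and copies were named for that, and Cdkn1a, Cldn4 and the other S and M phase genes after their values were seen.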

Additional observations from a re-analysis of the deposited data

How the results depend on the processing

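Under 7 alternatives, the log2 fold changes of the 10 genes moved by 0.11 at most, and the sign of Cdkn1b alone changed, with the 3 scalings of the reads. With 0 RPKM added, 1 of the 10 genes, Ccnd2, lay above 1.5-fold, and with a threshold of 0.5, chosen after seeing the data, 1 gene was above it (Ccnd2) and 1 below it (Cdk2). Of the 70 genes of the 9 lists, 0 lay above 1.5-fold with 1 RPKM added, in place of 1 (Fbxo31). The same held with each of the scalings (TMM, the median of ratios, the upper quartile). More than 1.5-fold below lay 1 gene with 1 RPKM added and 3 with each of the scalings, in place of 2. The median of the list genes went from -0.0007 to 0.02 among those with a mean of at least 50 recovered reads. Of the list genes, that setting removed only those whose whole reads were not recovered, and none for a low count. With the scalings the median was -0.08 to -0.07. The cause of each change is the added amount, the scaling, the loss of genes without recovered reads or the threshold itself, since nothing else was changed. No paired analysis was possible because each condition has 1 library and no result comes from a test. Depth limits Ccne1, Ccne2 and Ccnd3 most, and the spread between replicates is unknown for every gene.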
